A study of Homo sapiens with 8 samples.

Results

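The genes described here are those whose symbol begins with RAB and a number, RAB3GAP, RABGAP or TBC1D. They were chosen by symbol, not by any measured value, from the annotation that pairs the array's probe sets with genes. Of the 14884 genes in that annotation 16 met the rule, 15 of them protein-coding and 1 non-coding, each read by 1 probe set. The antisense RNA RAB11B-AS1 and the readthrough pseudogene TBC1D3P1-DHX40P1 matched the patterns but were left out. The set had been labelled as RAB small GTPase genes, but only 1 of the 16, RAB6D, encodes a RAB GTPase itself. The other 15 comprised GTPase-activating proteins (GAPs) and their relatives, exchange factors, effectors, a further coding gene and the non-coding RNA. The other RAB GTPases and TBC1D genes were not analysed here. The set is called the RAB-named and TBC1D genes below.

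The samples came from PC-3, a line of prostate carcinoma that grows without androgen: 8 clones, with 1 Affymetrix array each. In the RWDD4 group were 4 clones (17, 24, 5 and 6) that carried RWDD4, a little-studied gene whose protein has an RWD domain, in a p-Lenti (lentiviral) vector. The control group comprised 4 clones (2, 3, 4 and 5) with the same vector empty, and all 8 had been selected with blasticidin. Each clone is a single isolate, so a difference between groups is measured against the spread between clones, and no clone was measured on more than 1 array. The promoter that drives RWDD4 is not given here, and RNA was total RNA from bulk cultures.

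RAB proteins are small GTPases that mark the membranes of the secretory and endocytic pathways. An exchange factor (GEF) loads them with GTP on a membrane, where they recruit effectors such as motors, tethers and adaptors. A GAP, most often one with a TBC domain, then speeds the hydrolysis of GTP, and GDI extracts the inactive protein, which carries prenyl groups added with the help of REP proteins. In epithelial cells RAB11 and its effectors return receptors, integrins and junction proteins from recycling endosomes to the surface.

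Values are the authors' log2 values, in which a difference of 1 is a 2-fold difference, and levels of different genes are not on a common scale. Array medians of all probe sets were 4.89 to 4.90 in RWDD4 clones and 4.92 to 4.96 in control clones, while medians over the named genes were 6.09 to 6.13 and 5.89 to 6.03. The SD over all probe sets was higher in the RWDD4 arrays (2.19 to 2.21) than in the control arrays (2.10 to 2.15). Values of all genes correlated at r = 0.980 to 0.992 between control clones, 0.991 to 0.993 between RWDD4 clones and 0.913 to 0.974 between groups. All 7 measured PC-3 markers (KRT8, KRT18, KRT19, EPCAM, VIM, CD44 and LCN2) lay above the median of all values, 4.92; 2 of them rose and 4 fell. Also above it were KLK2 and KLK3, prostate genes taken to be silent in this line. Of 5 measured markers of blood, stroma and endothelium CD14, VWF and DCN lay below that median, and CD68 and PECAM1 above it. No background level was at hand to read these against. The log2 values of the 2 blood markers summed to 14.1 to 14.7 in RWDD4 clones and 14.6 to 15.4 in control clones. Those of the 3 stromal and endothelial markers summed to 12.5 to 13.0 and 12.8 to 13.8. Sums of log2 values are not amounts of RNA. Of these, both blood markers and 1 of the other 3 fell. The part of any of these markers in the results was not tested.

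The overexpressed gene itself read 10.42, 10.45, 10.46 and 9.87 in RWDD4 clones 17, 24, 5 and 6, and 6.64, 7.58, 7.21 and 8.0 in control clones 2, 3, 4 and 5. It was higher in every RWDD4 clone, by 2.94 (SE 0.25; limma adjusted p 5.98e-05). Among the 16 RAB-named and TBC1D genes 8 rose and 2 fell in the RWDD4 clones (limma, adjusted p under 0.05 over all genes). The other 6 did not pass. The share that changed, 62.5%, stands beside 46.7% of all 14884 genes, and the shares that rose and fell, 50% and 12.5%, beside 25.1% and 21.6%. Of the 15 coding members 60% changed, 46.7% rose and 13.3% fell, beside 52.7%, 30.0% and 22.7% of all 11916 coding genes. With so many genes changed between the groups, a call for any 1 gene was common. In bulk RNA from a clone, fewer cells with a transcript and less of it per cell cannot be told apart. The groups did not overlap in 13 of the 16 genes (81.25%), against 44.8% of all genes and 50.6% of coding genes. The median difference was 0.38 over the 16 genes and -0.08 over all genes. Rises made up 53.8% of all calls on the deposited scale, 48.1% after quantile normalization, 62.4% after median centring and 64.4% after cyclic loess. The 15 genes other than RAB6D gave 8 rises and 2 falls on the deposited scale, and 8 and 3, 9 and 1, and 10 and 2 on the other scales, in that order.

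**Figure D1:**
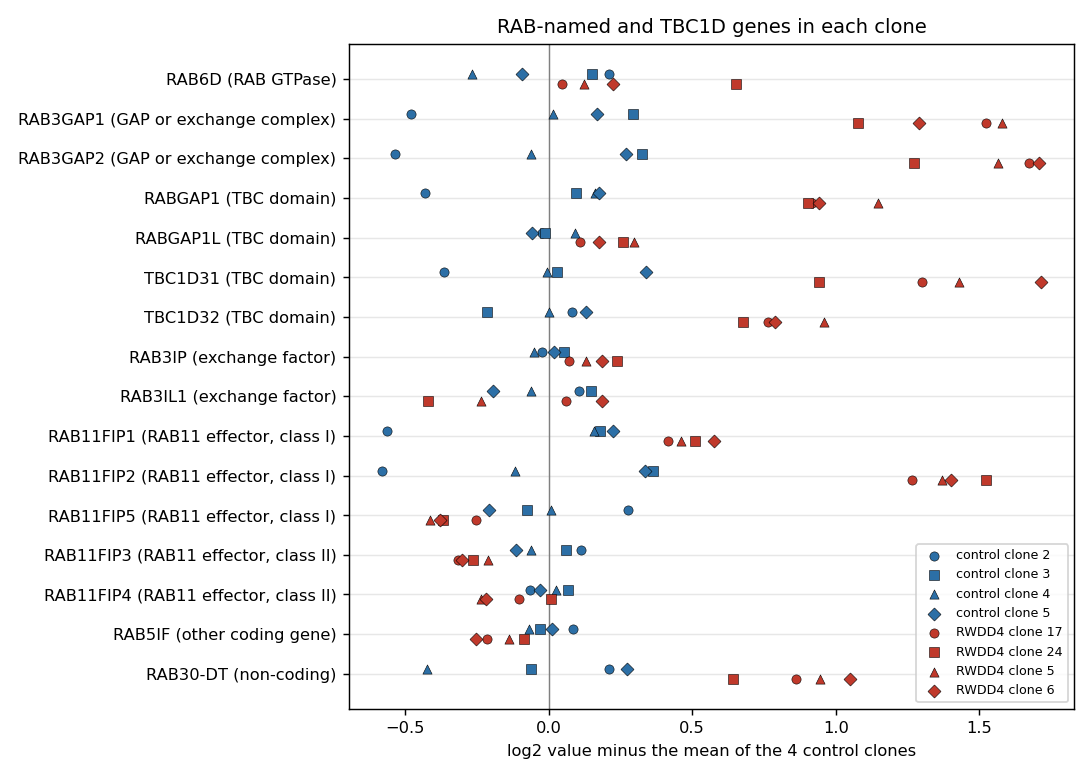
Log2 value of each of the 16 RAB-named and TBC1D genes in each clone, relative to the mean of that gene in the 4 control clones. Red marks RWDD4 clones, blue marks control clones and the marker shape marks the clone. RAB3GAP1, RAB3GAP2, RABGAP1, TBC1D31 and RAB11FIP2 show the widest gaps between the groups, and control clone 2 is the lowest point in each of these 5 genes.

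Both subunits of the RAB3GAP complex rose, and RAB3GAP2 had the largest difference of the set. RAB3GAP1 is the catalytic subunit and RAB3GAP2 the non-catalytic one; the complex is a GAP for RAB3 proteins and an exchange factor for RAB18, a RAB of the endoplasmic reticulum and lipid droplets, and mutations in either gene cause Warburg Micro syndrome. RAB3GAP2 read 7.59, 7.19, 7.48 and 7.62 in RWDD4 clones 17, 24, 5 and 6 and 5.38, 6.24, 5.85 and 6.18 in control clones 2, 3, 4 and 5. Every RWDD4 clone was above every control clone, by a difference of 1.55 (SE 0.18) or 2.94-fold (limma adjusted p 0.000126). RAB3GAP1 read 8.28, 7.84, 8.34 and 8.05 in the RWDD4 clones and 6.28, 7.05, 6.78 and 6.93 in the control clones, in the same clone order. Again the groups were apart, by 1.37 (SE 0.17) or 2.58-fold (limma adjusted p 0.000168). The control clones ranked alike in both subunits, with clone 2 lowest, then 4, 5 and 3, and clone 24 was the lowest RWDD4 clone in both.

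The 250 bases before the annotated start of both genes (RefSeq, GRCh38.p14) are shown because the subunits form 1 complex and rose together. Capitals mark matches, on either strand, to the motifs searched: the GC box GGGCGG, the CCAAT box CCAAT, the TATA box TATAAA, the ETS site CCGGAAG and the E-box CACGTG. A palindromic NRF1 consensus was also searched and had no match in these windows. The windows are chr2:135052042-135052291 (plus strand) and chr1:220272454-220272703 (minus strand).
RAB3GAP1: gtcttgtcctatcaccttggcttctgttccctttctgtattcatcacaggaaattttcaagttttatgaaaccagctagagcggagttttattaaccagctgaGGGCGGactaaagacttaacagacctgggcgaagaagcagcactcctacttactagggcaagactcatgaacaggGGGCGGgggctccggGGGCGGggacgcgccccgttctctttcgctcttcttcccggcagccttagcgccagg
RAB3GAP2: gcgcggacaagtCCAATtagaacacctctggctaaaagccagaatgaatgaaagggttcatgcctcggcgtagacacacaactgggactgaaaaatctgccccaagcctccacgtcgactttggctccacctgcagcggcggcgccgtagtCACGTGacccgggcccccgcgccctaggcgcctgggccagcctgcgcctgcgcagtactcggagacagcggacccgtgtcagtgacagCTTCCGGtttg
RAB3GAP1 held 3 GC boxes and none of the other motifs. RAB3GAP2 held no GC box but 1 CCAAT box, 1 E-box and 1 ETS site, the last beginning 11 bases before the start, so the windows shared no motif of those searched. Among 27305 such windows, 1 per gene, 42.3% held a GC box, 33.0% a CCAAT box, 11.1% a TATA box, 8.82% the ETS site, 6.49% the E-box and 1.13% the NRF1 consensus. GC content was 53.6% in the RAB3GAP1 window and 62% in the RAB3GAP2 window, with a median of 58% over all windows. A match is a string of letters and no evidence of binding.

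Of the 4 genes with a TBC domain, the fold that gives most RAB GAPs their activity, 3 rose and none fell; 30.0% of all coding genes rose. These genes are long, and 51.1% and 43.4% of coding genes rose in the span deciles that hold them. RABGAP1, a GAP that acts on RAB6A among others and has been found at the centrosome, read 8.33, 8.31, 8.55 and 8.35 in RWDD4 clones 17, 24, 5 and 6. In control clones 2, 3, 4 and 5 it read 6.98, 7.50, 7.57 and 7.58. The RWDD4 clones lay close together and above all control clones, by 0.98 (SE 0.14) or 1.97-fold (limma adjusted p 0.000327). Its relative RABGAP1L read 4.34, 4.49, 4.53 and 4.41 against 4.21, 4.21, 4.32 and 4.17. The groups did not overlap, but the difference of 0.21 (SE 0.09) did not pass (limma adjusted p 0.0639). It passed after quantile normalization, median centring and cyclic loess, at 0.27, 0.26 and 0.32.

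TBC1D31 is a protein of the centrosome and its satellites. It read 7.96, 7.61, 8.09 and 8.38 in RWDD4 clones 17, 24, 5 and 6 and 6.30, 6.69, 6.66 and 7.0 in control clones 2, 3, 4 and 5. The groups were separate and differed by 1.35 (SE 0.18), or 2.55-fold (limma adjusted p 0.000224). TBC1D32, which is needed for Sonic hedgehog signalling and for cilia, read 4.29, 4.20, 4.48 and 4.31 against 3.6, 3.31, 3.53 and 3.65. It was higher in all RWDD4 clones, by 0.80 (SE 0.10) or 1.74-fold (limma adjusted p 0.000215), at a mean level that only 32% of probe sets lay under. Fold changes at such low levels are compressed on arrays.

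The RAB11 family-interacting proteins (RAB11FIP), which link RAB11 on recycling endosomes to motors and other partners, split in direction. Of the 5 genes 2 rose (40%), 2 fell (40%) and 1 did not pass, with a median of -0.14. Among all coding genes 30.0% rose and 22.7% fell, so calls in both directions were common. The class I proteins RAB11FIP1, RAB11FIP2 and RAB11FIP5 carry a C2 domain, and the class II proteins RAB11FIP3 and RAB11FIP4 carry EF hands.

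RAB11FIP2, which binds the motor myosin Vb, read 6.80, 7.06, 6.90 and 6.94 in RWDD4 clones 17, 24, 5 and 6. Control clones 2, 3, 4 and 5 read 4.95, 5.90, 5.42 and 5.87. The groups lay far apart, at 1.39 (SE 0.19) or 2.62-fold (limma adjusted p 0.000249). RAB11FIP1, also called Rab coupling protein and known for the recycling of integrins and growth factor receptors, read 6.52, 6.61, 6.56 and 6.68 against 5.54, 6.28, 6.26 and 6.33. It rose by 0.49 (SE 0.16) or 1.41-fold (limma adjusted p 0.0294), and control clone 2 lay well under the other control clones. Without that clone the difference was 0.30 (limma adjusted p 0.0187). The call was lost without RWDD4 clone 24 (adjusted p 0.0589), 5 (0.0575) or 6 (0.0719), after quantile normalization (0.0501) and once each array's trend over genomic span was taken out (0.0749).

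RAB11FIP5, a class I protein also named Rip11, read 7.12, 7.01, 6.97 and 7.0 in RWDD4 clones 17, 24, 5 and 6 and 7.65, 7.30, 7.39 and 7.17 in control clones 2, 3, 4 and 5. It was lower in every RWDD4 clone and fell by 0.35 (SE 0.11; limma adjusted p 0.0235). RAB11FIP3, which carries RAB11 endosomes to the cleavage furrow during cytokinesis, read 7.37, 7.42, 7.48 and 7.39 against 7.80, 7.75, 7.63 and 7.58. It too was lower without overlap, and fell by 0.27 (SE 0.09; limma adjusted p 0.0252). RAB11FIP4 lay at 5.18 to 5.42 in RWDD4 clones and 5.35 to 5.48 in control clones, so that the groups overlapped, with a difference of -0.14 (SE 0.09; limma adjusted p 0.224). These falls were small and the calls close to the threshold. RAB11FIP5 did not pass without RWDD4 clone 5 (adjusted p 0.0624), RWDD4 clone 6 (0.0547) or control clone 4 (0.0501). RAB11FIP3 did not pass without RWDD4 clone 17 (0.0604), RWDD4 clone 6 (0.0595), control clone 2 (0.0571) or control clone 3 (0.0540), nor after median centring (0.0639).

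The windows before the start of RAB11FIP2 and RAB11FIP5 are printed because these class I genes moved in opposite directions. They lie at chr10:118046942-118047191 (minus strand) and chr2:73112949-73113198 (minus strand) of GRCh38.p14 (RefSeq), with capitals for matches to the same motifs.
RAB11FIP2: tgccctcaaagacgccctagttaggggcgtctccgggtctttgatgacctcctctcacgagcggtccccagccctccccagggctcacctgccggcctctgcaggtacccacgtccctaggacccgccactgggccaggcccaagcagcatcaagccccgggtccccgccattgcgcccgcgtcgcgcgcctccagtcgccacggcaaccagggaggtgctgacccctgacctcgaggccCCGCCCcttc
RAB11FIP5: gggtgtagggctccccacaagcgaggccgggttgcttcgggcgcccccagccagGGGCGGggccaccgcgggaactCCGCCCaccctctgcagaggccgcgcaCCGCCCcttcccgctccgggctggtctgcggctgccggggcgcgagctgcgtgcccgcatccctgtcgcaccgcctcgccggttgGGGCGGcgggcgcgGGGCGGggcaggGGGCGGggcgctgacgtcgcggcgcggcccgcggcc
RAB11FIP2 held 1 GC box and RAB11FIP5 held 6, and neither held another of the motifs. The GC content was 70.4% and 81.6%. Of the 13 genes of the set that were found in the promoter table, 9 held a GC box, 4 a CCAAT box, 2 the ETS site, 2 the E-box and 1 the TATA box, the last being RAB6D.

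The other members did not pass, except the non-coding RNA. RAB3IP (Rabin8), an exchange factor that activates RAB8 in cilium formation and exocytosis, lay at 4.93 to 5.10 in RWDD4 clones and 4.81 to 4.92 in control clones. The groups did not overlap, but the difference of 0.16 (SE 0.08; limma adjusted p 0.140) did not pass; it passed after cyclic loess, at 0.27, and lay at -0.09 with the span trend removed. RAB3IL1 (GRAB), the related exchange factor, lay at 6.59 to 7.19 and 6.81 to 7.15, overlapping, with a difference of -0.10 (SE 0.14; limma adjusted p 0.569). RAB5IF, named for an interaction with RAB5 but known as a subunit of a translocon complex of the endoplasmic reticulum, lay at 9.22 to 9.39 and 9.41 to 9.56. Its RWDD4 clones were all lower, by -0.17 (SE 0.08; limma adjusted p 0.114), and the fall passed after quantile normalization, at -0.32.

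RAB6D, the 1 GTPase of the set and a close copy of RAB6C and RAB6A, read 2.53, 3.13, 2.60 and 2.70 in RWDD4 clones 17, 24, 5 and 6 and 2.69, 2.63, 2.21 and 2.39 in control clones 2, 3, 4 and 5. The groups overlapped, with a difference of 0.26 (SE 0.15; limma adjusted p 0.176). It rose by 0.46 (limma adjusted p 0.0241) with the span trend removed. Only 3.68% of probe sets had a lower mean, and signal from its copies cannot be told apart from its own. RAB30-DT, a non-coding RNA divergent from the GTPase gene RAB30, read 6.14, 5.92, 6.22 and 6.33 against 5.49, 5.22, 4.86 and 5.55. It was higher in every RWDD4 clone and rose by 0.87 (SE 0.16), or 1.83-fold (limma adjusted p 0.00120).

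**Figure D2:**
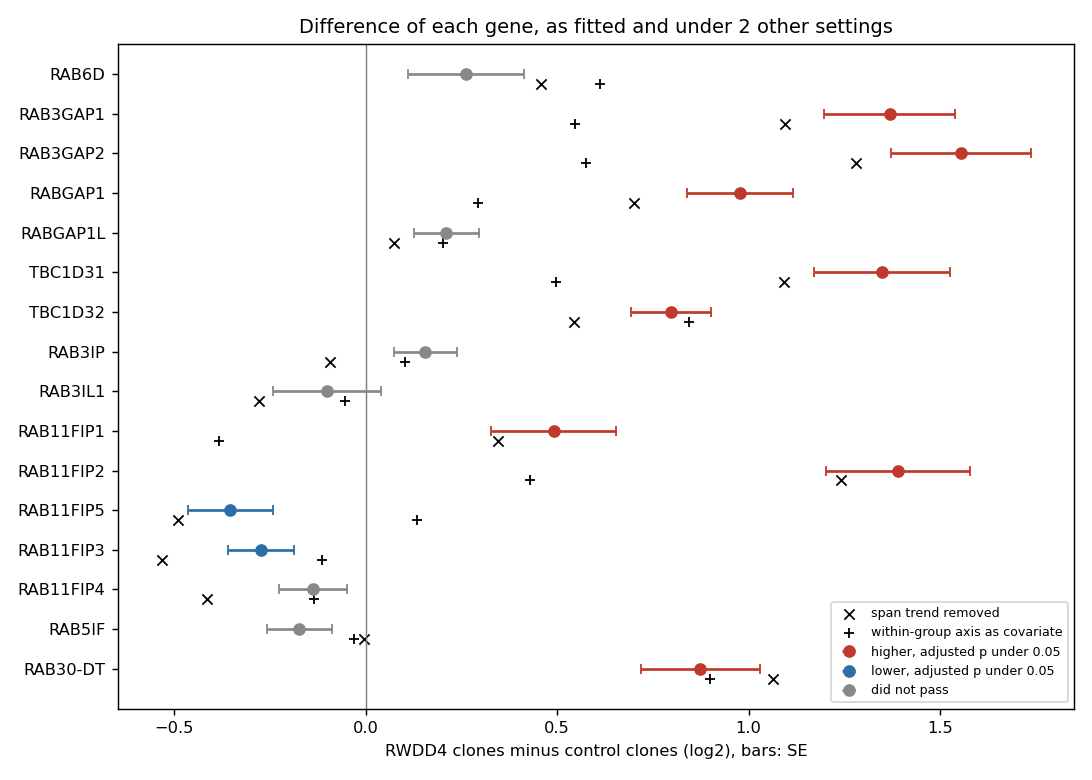
Difference between RWDD4 and control clones (log2, points with SE bars, coloured by the test) for each RAB-named or TBC1D gene. Crosses show the value once the trend over genomic span is taken out. Plus signs show the value with a within-group axis as covariate. As fitted, 8 genes are higher and 2 lower past the test, and RAB3GAP2 is farthest right at 1.55. With the covariate none passes, and the plus sign lies at -0.38 for RAB11FIP1 and at 0.13 for RAB11FIP5, on the other side of 0.

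Calls changed most in the fit with a within-group axis as covariate. Leaving out each clone in turn gave 7 to 8 rises and 0 to 2 falls among the 16 genes. The leading axis of variation within the groups took 38.9% of the within-group variance; control clone 2 lay at -58.4 on it, the other control clones between -24.4 and -12.2 and the RWDD4 clones between 19.7 and 35.9. With each array's position on this axis as a covariate none of the 16 genes passed (3, TBC1D32, RAB30-DT and RAB3GAP2, had an unadjusted limma p under 0.05), nor did RWDD4 itself (1.88, limma adjusted p 0.159), and 1 of all genes did. RAB3GAP1 and RAB3GAP2 then lay at 0.55 and 0.57, TBC1D31 at 0.50 and RAB11FIP2 at 0.43, and TBC1D32 and RAB30-DT at 0.84 and 0.90 (limma adjusted p 0.190 and 0.315). The weight of each gene on the axis correlated with its group difference at r = 0.76, and array positions on the axis still hold that difference. Group and axis largely run together in these clones, and the part of each in the differences cannot be told apart. Among the 8 genes that rose, control clone 2 had the lowest value of its group in 6, and RWDD4 clone 24 the lowest of its group in 6. Control clone 2 had the highest value of its group in both genes that fell.

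Related genes were compared to see whether they changed unequally. Of 32 pairs listed, 5 had both genes measured, and the difference between the genes in each clone was compared between groups by an exact two-sided permutation test (70 relabellings), adjusted by Benjamini-Hochberg for 5 pairs. None of the 5 passed after adjustment, and 2 had an unadjusted exact p of 0.0286, which is the smallest this design can give. An adjusted p under 0.05 needs at least 3 of the 5 pairs at this smallest value. With only 2 there, neither could pass, whatever the size of its difference. The difference of RABGAP1 exceeded that of RABGAP1L by 0.77 (SE 0.15), with no overlap between groups (exact p 0.0286, adjusted 0.0714). That of RAB11FIP1 exceeded that of RAB11FIP5 by 0.84 (SE 0.29), also without overlap (exact p 0.0286, adjusted 0.0714). For RAB3GAP1 minus RAB3GAP2 the value was -0.19 (SE 0.10; exact p 0.0857, adjusted 0.143), for RAB11FIP3 minus RAB11FIP4 -0.13 (SE 0.09; exact p 0.229, adjusted 0.229) and for RAB3IP minus RAB3IL1 0.26 (SE 0.18; exact p 0.229, adjusted 0.229). After quantile normalization 3 pairs passed, RABGAP1 with RABGAP1L (0.51), RAB11FIP1 with RAB11FIP5 (0.95) and RAB11FIP3 with RAB11FIP4 (-0.36), each at an adjusted exact p of 0.0476. All 3 then stood at the smallest p, so each passed only together with the others. The RABGAP1 pair passed although its difference was smaller than on the deposited scale.

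**Figure D3:**
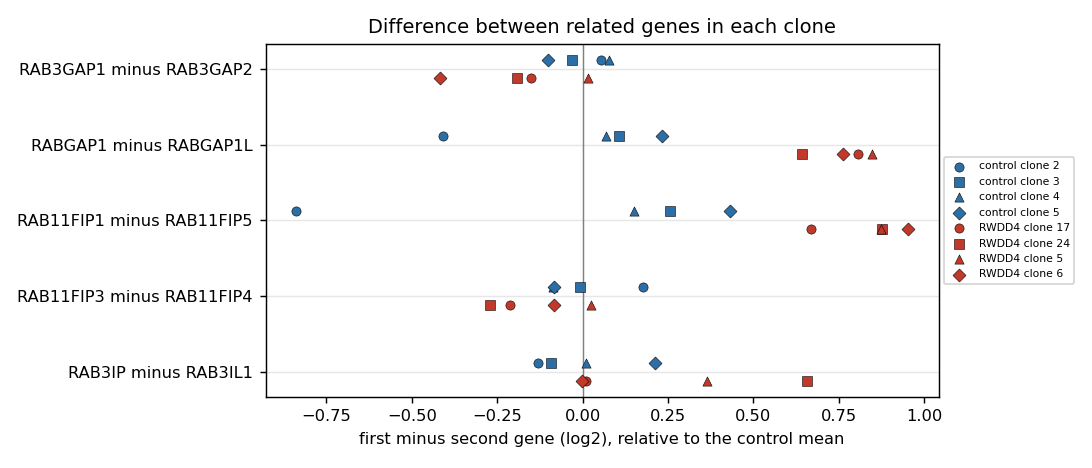
Difference between the genes of each related pair in each clone (log2), relative to its mean in the 4 control clones (red: RWDD4, blue: control). In the RABGAP1 pair the RWDD4 clones lie at 0.64 to 0.85 and the control clones at -0.41 to 0.23, and in the RAB11FIP1 pair at 0.67 to 0.95 and -0.84 to 0.43; in the other 3 pairs the groups overlap.

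Differences between the groups varied with the genomic span of a gene. The RAB-named and TBC1D genes are mostly long. The median span of the 15 coding members was 92.5 kb, against 26.7 kb over 11916 coding genes. Across these genes, which are no independent replicates, difference and span had a Spearman rho of 0.40. In the ninth decile of span (88.4 to 159 kb), which holds RAB3GAP1, RAB3GAP2, TBC1D31, RAB11FIP3 and RAB11FIP4, 51.1% of coding genes rose and 8.73% fell, with a median difference of 0.37. RAB3GAP1 and RAB3GAP2 both span 124 kb. In the tenth decile, which holds RABGAP1, TBC1D32 and RABGAP1L, the median was 0.17 and 43.4% rose. RAB11FIP2, RAB11FIP1 and RAB11FIP5 span 42.0, 40.9 and 39.6 kb, in a decile where 44.2% of coding genes rose and 16.2% fell. With each array's span trend removed, RAB3GAP2, RAB3GAP1, RAB11FIP2, TBC1D31, RABGAP1 and TBC1D32 passed, at 1.28, 1.09, 1.24, 1.09, 0.70 and 0.54. The falls were then larger, at -0.53 for RAB11FIP3 and -0.49 for RAB11FIP5, and RAB11FIP4 passed at -0.42.

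**Figure D4:**
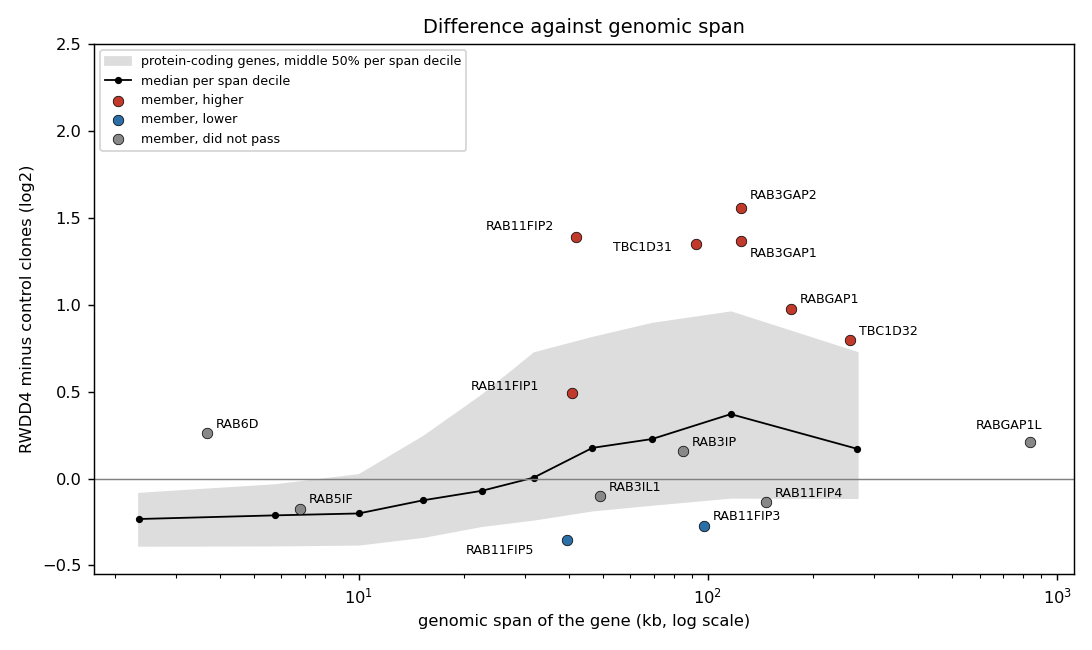
Difference between RWDD4 and control clones (log2) against genomic span (kb, log scale) for the 15 coding RAB-named and TBC1D genes (points, coloured by the test). The line and grey band give the median and middle 50% of all coding genes per span decile. The line runs from -0.23 in the shortest decile to 0.37 in the ninth and back to 0.17 in the tenth, and RAB11FIP2, RAB3GAP1, RAB3GAP2, TBC1D31, RABGAP1 and TBC1D32 lie above the band.

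The rest of the RAB cycle was read from a list of 134 genes in 5 roles, of which 106 were measured. Of these 46 rose and 25 fell (67.0% changed, with a median of 0.15), beside 46.7% of all genes and 52.7% of coding genes. The split was 39 up and 33 down after quantile normalization, 37 up and 33 down with the span trend removed, 46 up and 19 down after median centring and 47 up and 19 down after cyclic loess. The genes named from this list are those with the largest differences in each role, and EXOC6B, TRAPPC6B, EHBP1 and WDR41, which were chosen after their values were seen.

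Among genes that serve all RABs, CHML and GDI2 rose. CHML (REP2) escorts new RAB proteins to the prenylating enzyme and GDI2 extracts RABs from membranes. CHML read 8.05, 8.29, 8.52 and 8.96 in RWDD4 clones 17, 24, 5 and 6 and 5.30, 6.61, 6.36 and 6.89 in control clones 2, 3, 4 and 5. It was higher in each RWDD4 clone, by 2.17 (SE 0.31) or 4.49-fold (limma adjusted p 0.000332). GDI2 read 9.86, 9.66, 10.08 and 9.73 against 7.53, 8.22, 8.05 and 8.39, likewise without overlap, and rose by 1.78 (SE 0.17) or 3.45-fold (limma adjusted p 6.76e-05). RABAC1 (PRA1), which releases RABs from GDI, fell by 0.58 (limma adjusted p 0.00389), and RABIF lay at -0.04 and did not pass.

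Of 48 genes measured in the exchange factor role 21 rose (43.8%) and 10 fell (20.8%), beside 30.0% and 22.7% of all coding genes. The role was set by the list and takes in subunits and partners of complexes, such as C9orf72 and WDR41. Not each of them need be an exchange factor itself. The median span of the 48 genes was 47.8 kb, in a span decile where 44.2% of coding genes rose and 16.2% fell. TRAPPC11 and TRAPPC8, subunits of the TRAPPIII complex that acts on RAB1, rose by 1.80 and 1.76, DENND4A, an exchange factor of RAB10, by 1.64, and C9orf72, which works in a complex with SMCR8 and WDR41, by 1.32. WDR41 rose by 1.11. The small TRAPP subunits TRAPPC6A, TRAPPC5 and TRAPPC2L fell by 0.78, 0.66 and 0.55 and DENND3 by 0.52. TRAPPC6A lies in a span decile where 29.6% of coding genes fell, TRAPPC5 and TRAPPC2L in one where 38.6% fell. DENND3 lies in one where 12.9% fell. TRAPPC11 and TRAPPC8 lie in span deciles where 44.2% and 51.1% of coding genes rose. The part of span in these differences was not tested. The TRAPP subunits measured numbered 14, of which 6 rose (42.9%) and 3 fell (21.4%), beside 30.0% and 22.7% of all coding genes. The share that fell was near that of all coding genes. TRAPPC6B, the close relative of TRAPPC6A, rose by 1.0. The call of TRAPPC2L was lost without RWDD4 clone 5 or 6, without control clone 2 or 3, and with the span trend removed. Of 16 genes with a DENN domain 7 rose and 2 fell, so that 56.25% changed, near the 52.7% of coding genes.

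In the 8 further TBC domain genes 3 rose and 3 fell (75% changed, beside 52.7% of coding genes). EVI5, a GAP linked to RAB11 and to cell division, rose by 1.15, TBCK by 0.95 and USP6NL, which acts on RAB5, by 0.78. EVI5L, the relative of EVI5, fell by 0.82, SGSM3 by 0.54 and GRTP1 by 0.44. EVI5 lies in a span decile where 43.4% of coding genes rose and EVI5L in one where 18.9% fell. SGSM3 and GRTP1 lie in one where 16.2% fell.

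Of 44 effector genes measured 20 rose (45.5%) and 11 fell (25%), beside 30.0% and 22.7% of all coding genes. The share that fell was near that of all coding genes. Their median span was 93.5 kb, in a span decile where 51.1% of coding genes rose and 8.73% fell. The RAB11 effectors WDR44 and EXOC6, the latter a subunit of the exocyst that tethers vesicles at the plasma membrane, rose by 1.73 and 1.66, and EXOC6B by 1.39. WDR44 read 8.43, 8.24, 8.39 and 8.48 in RWDD4 clones 17, 24, 5 and 6 and 6.12, 7.09, 6.70 and 6.72 in control clones 2, 3, 4 and 5. KIF20A, a kinesin that binds RAB6 and acts in cytokinesis, rose by 1.78 and KIF16B, an endosomal kinesin, by 1.43. EHBP1L1 fell by 0.84, while its relative EHBP1, which like it binds RAB8 family proteins, rose by 1.05. EHBP1L1 lies in a span decile where 29.6% of coding genes fell, and EHBP1 in one where 43.4% rose. RILP, which couples RAB7 on lysosomes to dynein, fell by 0.79. It read 7.85, 8.11, 8.01 and 7.71 against 8.94, 8.94, 8.63 and 8.34, without overlap. RILP lies in the shortest span decile, where 37.3% of coding genes fell. MICALL2 and SYTL1 fell by 0.53 and 0.51, in span deciles where 22.8% and 36.4% of coding genes fell. The RAB kinases LRRK1 and LRRK2, at 0.21 and -0.10, did not pass. All genes named here from the RAB cycle list had a limma adjusted p between 6.76e-05 and 0.0280, RABIF, LRRK1 and LRRK2 excepted, and with the covariate for the within-group axis none passed (17 of the 106 had an unadjusted limma p under 0.05).

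**Figure D5:**
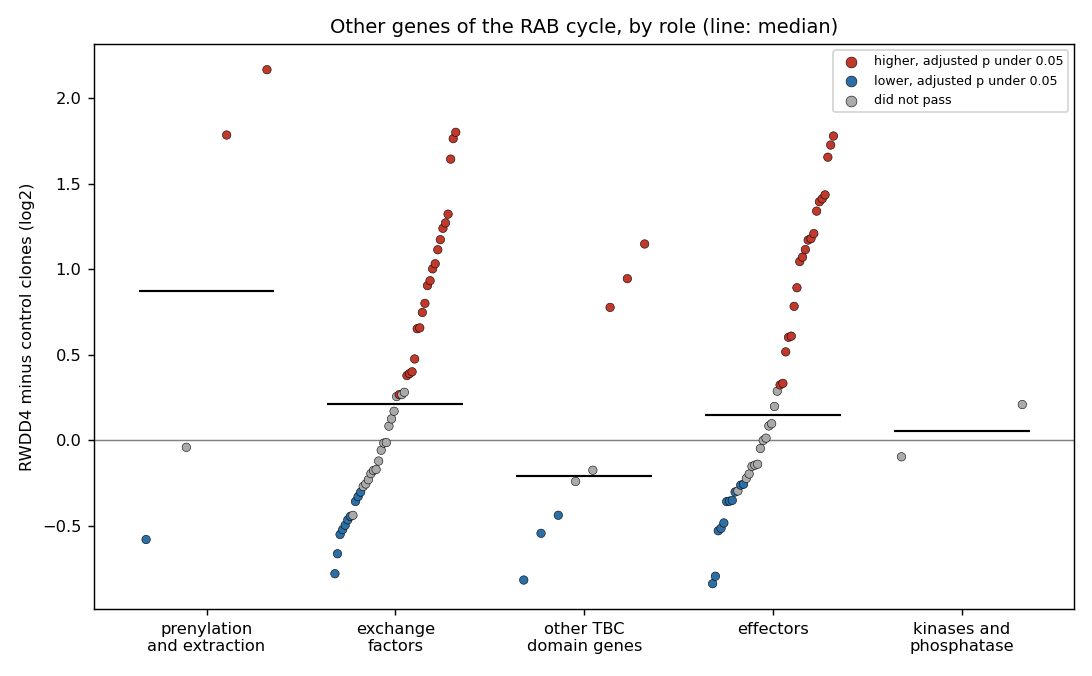
Difference between RWDD4 and control clones (log2) for the 106 measured genes of the RAB cycle list, sorted within each role, with the median of the role as a line (red: higher, blue: lower, grey: did not pass). Exchange factors (21 up, 10 down) and effectors (20 up, 11 down) range from -0.84 to 1.80, and CHML, at 2.17, is the highest point.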

How the data were processed

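Expression was measured on 8 arrays, 1 per PC-3 clone, grouped by the sample titles. The values, on a log2 scale, are those deposited by the authors. The submitters' processing notes list Partek and RMA, with no version or setting. RMA corrects background, normalizes arrays to each other and summarises probes, so small changes near background are compressed. No build, scan date or batch is given in the sources used here. The number of arrays limits the precision.

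Of 53617 probe sets 16098 had 1 symbol, none had several and 37519 were unlisted. The probe set with the highest mean stood for a gene, which gave 14884 genes, named by gene ID through a RefSeq table (GRCh38.p14). RWDD4 minus control was fitted over all of them with lmFit and eBayes of limma 3.58.1 (R 4.3.3), without covariates or filter, two-sided, with Benjamini-Hochberg adjustment; adjusted p under 0.05 was called. Errors are SE of the fit or, for pairs of genes, of the difference of means over 4 clones per group. The steps were tested on simulated data. The members, lists, pairs and alternatives were chosen with earlier results of these data known. By the rule for named genes every member was described, per-clone values were given for the members, and up to 4 genes per direction and role were named from the RAB cycle list, apart from those said to have been chosen after their values were seen. The alternatives were a variance trend with robust prior, other probe set choices, a level filter, 3 scalings, array weights, lowess detrending of each array (smoother span 0.3) over the log2 length of the gene in the genome, a covariate for the leading within-group axis, and leaving out each clone.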

Additional observations from a re-analysis of the deposited data

Results flagged for a closer look

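In 34 groups of 4 values (RWDD4 and the 16 genes in each group) the highest or lowest clone was checked for its distance from the others by Dixon's criterion, which chance meets in about 1 in 20 groups, and 4 met it. RWDD4 clone 6 had 9.87 for RWDD4, under 10.42 to 10.46 in the other RWDD4 clones. Control clone 2 had 6.98 for RABGAP1, under 7.50 to 7.58 in the other control clones, and 5.54 for RAB11FIP1, under 6.26 to 6.33. RWDD4 clone 5 had 8.55 for RABGAP1, above 8.31 to 8.35 in the other RWDD4 clones.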

How the results depend on the processing

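No paired analysis was possible because the groups share only 1 clone number, 5, which does not mark a shared origin. With a covariate for the within-group axis, 0 genes rose and 1 fell among all genes (1910 at an unadjusted p under 0.05, limma), 0 rose and 0 fell among the 15 genes other than RAB6D, and 0 rose and 0 fell in the RAB cycle list. In that fit 5 named genes changed sign, RAB11FIP1 (-0.38), RAB11FIP5 (0.13), TRAPPC6A (0.036), TRAPPC2L (0.34) and USP6NL (-0.0053), none past the test; the cause was not tested. With the span trend removed the RAB GTPase RAB6D gave 1 rise in place of 0 and RAB3IP lay at -0.092. Leaving out clones in turn, RAB3IL1 ranged from -0.20 without RWDD4 clone 6 to 0.0037 without RWDD4 clone 24. After median centring 1 of the 15 genes fell in place of 2. After quantile normalization 3 pairs of genes passed in place of 0, and in this design no fewer than 3 can pass. The causes were not tested. Leaving out each clone in turn gave 7 to 8 rises and 0 to 2 falls among the 15 genes, with 0 falls without RWDD4 clone 6, and 1 fall without RWDD4 clone 17 or 5 or control clone 2, 3 or 4. It gave 41 to 46 rises and 19 to 24 falls in the RAB cycle list, and 3372 to 3737 rises and 2258 to 3031 falls among all genes. RAB3GAP1, RAB3GAP2, RABGAP1, TBC1D31, TBC1D32, RAB11FIP2 and RAB30-DT rose in every fit that included them other than the one with the covariate. With each clone left out 0 of the 5 pairs passed (adjusted exact p), which says nothing of stability at 4 against 3 clones; RAB11FIP1 minus RAB11FIP5 was 0.56 without control clone 2. Genes with low signal over background, RAB6D above all, are limited by the array.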
